A study of Mus musculus with 2 samples.

Results

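Fibroblasts of the tumour stroma were taken here as 151 of 22401 kept cell barcodes, 86 of 9765 in the wild-type library (WT) and 65 of 12636 in the library from mice without Dusp2 (KO). They were chosen by raw counts of unique molecular identifiers (UMIs, 1 per captured RNA molecule) in each barcode. Barcodes with fewer than 200 genes, or with more than 20% of their UMIs from mitochondrial genes, were set aside first. A barcode left after this step was a member when Col1a1, Col1a2 and Col3a1 together gave at least 10 UMIs, Hmga2 and Rhox5 gave none, Lyz2 gave fewer than 10, and Cd3d, Cd3e and Cd79a gave none. Hmga2 and Rhox5 mark the LLC cells in these tumours, Lyz2 marks macrophages, and the last 3 genes mark T and B cells.

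The tumours were LLC, the mouse Lewis lung carcinoma line, and the study measured single-cell RNA by the 10x Genomics 3' method in tumours of mice with and without Dusp2, a nuclear phosphatase of MAP kinases. Each genotype is 1 library, and the labels describe both as lymphocytes that had entered the tumour. The labels give the molecule of the WT library as total RNA and that of the KO library as polyA RNA. Strain, sex and age of the mice, the deleted stretch of Dusp2, the site of the tumours, any sorting and any pooling of animals are not stated in the sources used here. No test could be made between single libraries. Genotype cannot be told apart from animal, tumour, dissection or library preparation.

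Fibroblasts make the collagen scaffold of connective tissue, and in tumours they are known to take several states. Resting cells around vessels carry genes such as Pi16 and Dpp4, matrix-making and contractile cells carry genes such as Tnc, Lrrc15 and Acta2, and inflammatory cells release chemokines and cytokines such as Cxcl1, Ccl2 and Il6. Decorin, encoded by Dcn, is a small proteoglycan that binds collagen fibrils and is a textbook fibroblast product.

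The WT members held 796875 UMIs, with a median of 7693 per cell, and the KO members 428333, with a median of 4663. Levels are given as CPM, the UMIs of a gene per 1000000 UMIs of all members of a library. Values in brackets after a level, a share or a log2 ratio of KO over WT are 95% intervals (exact Poisson for levels, Clopper-Pearson for shares, exact binomial for ratios) and cover counting error only. The 2 libraries shared 31 barcodes, none of them a member. The median share of mitochondrial UMIs was 1.01% in WT and 1.33% in KO members.

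Most barcodes with collagen UMIs also held tumour-cell transcripts. Of 1224 WT and 750 KO barcodes with at least 10 collagen UMIs, 1127 and 642 were set aside for Hmga2 or Rhox5, and a further 11 and 43 for an immune gene. Members held a median of 135 collagen UMIs in WT (10 to 1902) and 122 in KO (10 to 1554). Just inside the limit, 7 WT and 4 KO members held 10 to 14 collagen UMIs, and Dcn was detected in 6 and 4 of them. Just outside it, 10 WT and 6 KO barcodes with 5 to 9 UMIs met all other criteria, and Dcn was detected in 8 and 4.

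The label was checked on genes that the rule did not use. Dcn was detected in 84 of 86 WT and 64 of 65 KO members, against 6.59% and 4.07% of the other kept barcodes. Its level was 7578 CPM in WT (7388 to 7772) and 10095 in KO (9796 to 10400). Lumican, the small proteoglycan encoded by Lum, was detected in 76 and 60 members. Pdgfra, the receptor that marks most fibroblasts, was detected in 50 and 29 members, or 58.1% and 44.6%, against 10.3% and 5.57% of the other kept barcodes. The 9 fibroblast markers outside the rule were all detected in both libraries, and together they gave 15078 CPM in WT and 17981 in KO members against 513 and 384 CPM in the other kept barcodes.

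Barcodes with collagen and at least 6 UMIs of Hmga2 and Rhox5 looked different from members in the same libraries. There were 852 of them in WT and 398 in KO. The keratin gene Krt8 was detected in 96.6% and 95.2% of these, against 4.65% and 9.23% of members. Xist, the RNA of the inactive X chromosome, was detected in 5.63% and 8.29% of them, against 80.2% and 75.4% of members. Pdgfra did not mark members here: it was detected in 64.9% and 57.8% of these barcodes, whose median depth was 29314 and 26816 UMIs. A UMI of a Y-chromosome gene was found in 46.8% and 52.3% of them, against 7 WT members and 1 KO member, none with more than 1 such UMI. Barcodes set aside for a single UMI of Hmga2 or Rhox5, 23 in WT and 9 in KO, looked like members instead. Dcn was detected in 100% of them in both libraries, Xist in 91.3% and 88.9%, and Krt8 in 4.35% and 0%. The criterion thus also set aside fibroblast-like barcodes, and allowing 1 such UMI gave 109 WT and 74 KO members.

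**Figure D1:**
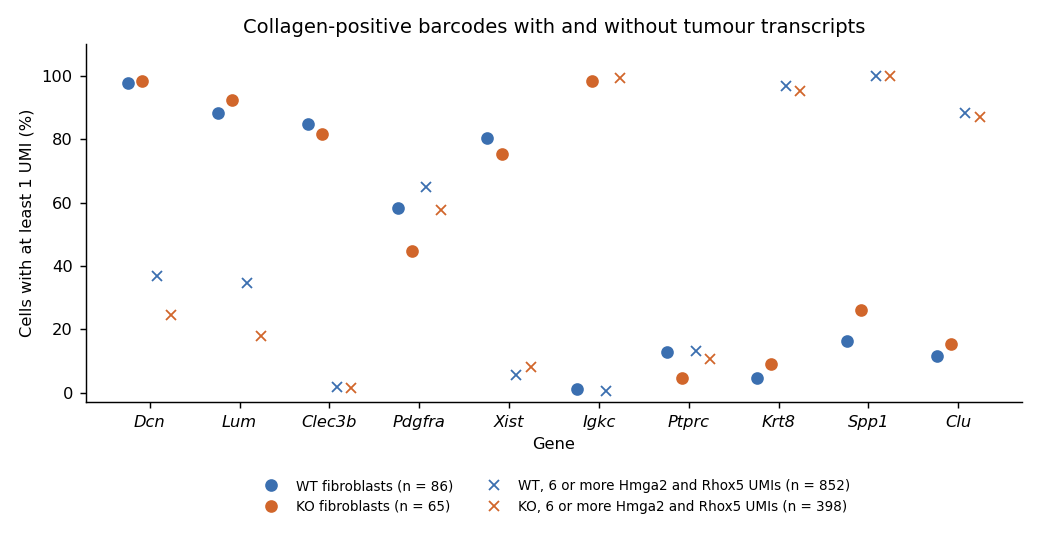
Share of cells with at least 1 UMI of each gene (y axis, %), for fibroblasts (circles) and for collagen-positive barcodes with 6 or more Hmga2 and Rhox5 UMIs (crosses), in the WT (blue) and KO (orange) libraries. Dcn, Lum, Clec3b and Xist are higher in the fibroblasts of both libraries, Krt8, Spp1 and Clu are higher in the barcodes with tumour transcripts, and Igkc follows the library rather than the cell. Pdgfra is lower in the fibroblasts of both libraries.

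Several defining markers of other mural and lining cells were at 0. Notch3 and Higd1b of pericytes, Myh11, Cnn1 and Lmod1 of smooth muscle, Cdh5, Tie1, Cldn5 and Emcn of endothelium, Msln and Upk3b of mesothelium, and Epcam and Krt18 of epithelium had no UMI in either set of members. The 9 pericyte markers summed to 191 CPM in WT and 166 in KO. Of this, Pdgfrb, which fibroblasts also make, gave 119 and 49.0 CPM, and Rgs5 gave 1.25 and 42.0 CPM. The 8 smooth muscle markers summed to 208 and 88.7 CPM against 17.4 and 11.7 CPM in other barcodes, from Acta2, Tagln and Smtn for the most part. The 10 endothelial markers summed to 52.7 and 46.7 CPM against 49.4 and 57.2, with Kdr, Tek, Pecam1 and Flt1 detected in both libraries. Immune RNA differed between the libraries. The 8 B-cell and plasma-cell markers gave 13.8 CPM in WT and 607 CPM in KO members, and the antibody light chain gene Igkc was detected in 1 of 86 and 64 of 65. Igkc was also detected in 97% of the other kept KO barcodes and 0.971% of the WT ones. The 10 macrophage markers gave 452 CPM in WT and 203 in KO members, against 8717 and 3443 CPM in the other barcodes. All 10 were detected in WT and 9 in KO. The part of this RNA in the differences below was not tested.

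Members made up 0.881% of kept barcodes in WT (0.705 to 1.09) and 0.514% in KO (0.397 to 0.655), a log2 ratio of -0.78 (-1.26 to -0.29). Most kept barcodes were immune cells. Among barcodes without UMIs of Ptprc, Cd79a, Cd3d and Cd3e, members were 75 of 1926 in WT and 62 of 1881 in KO, or 3.89% and 3.30%. On that base the log2 ratio was -0.24, with an interval of -0.75 to 0.26 that includes 0. The shares also depend on the immune criteria, which removed 11 of 97 WT and 43 of 108 KO collagen-positive barcodes without Hmga2 and Rhox5 UMIs. Dcn was detected in 100% and 95.35% of those removed, and Ptprc in 45.5% and 62.8%. When Lyz2 was required to be 0 the members were 18 WT and 39 KO cells, and the ratio over all kept barcodes turned to 0.74. Dissection and any sorting set such shares as well, and they cannot be told apart from genotype.

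Members were also far above the other barcodes in genes outside the rule and the marker lists. Ptx3, which encodes a secreted pattern-recognition protein, was at 1368 CPM in WT and 1966 in KO members and at 3.89 and 4.04 CPM in other barcodes. The dipeptidase gene Dpep1 was at 260 and 227 CPM against 0.842 and 0.575. Igfbp5, which encodes a binding protein of insulin-like growth factors, was at 652.5 and 397 CPM against 1.97 and 1.15. Of the genes that mark body position in fibroblasts, Tbx15, Tbx3, Hoxc10 and En1 were detected in 39, 13, 17 and 27 WT members and in 26, 12, 11 and 17 KO members.

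Members were not uniform. Clustering on variable genes, both libraries together, split them into 6 subclusters, which are described by their leading genes because the clustering used those genes. Subcluster 0 held 27 WT and 13 KO cells and its leading genes included Anxa3, Opcml, Ptgis and the elastin gene Eln, with 43.0% of its Eln UMIs in 1 cell. It also had the highest Pi16 (1446 CPM) and Dpp4 (118 CPM) of the 6. Subcluster 1 held 24 WT and 12 KO cells and was led by Tnc, Crabp1, Saa3 and Inhba. Tnc encodes the matrix protein tenascin C and Inhba an activin subunit. Its Col1a1, at 20099 CPM, was the highest of the 6, and it held 13 of the 21 cells with Lrrc15, a marker of matrix-making tumour fibroblasts.

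Subcluster 2 held 18 WT and 13 KO cells and its leading genes included the immediate-early genes Fos, Atf3, Jun and Egr1 together with Fcer1g, an immune receptor gene. The largest share from 1 cell was 48.1% of its Fos UMIs, 28.4% of its Atf3, 32.6% of its Jun, 27.0% of its Egr1 and 52.7% of its Fcer1g. Its median depth was 3637 UMIs, and its macrophage markers gave 1004 CPM against 182 to 362 CPM in the other subclusters. Subcluster 3 held 15 WT and 7 KO cells and was led by Fabp4, Enpep, Hgf and Col18a1. The largest share from 1 cell was 45.2% of its Fabp4 UMIs, 31.8% of its Enpep, 46.7% of its Hgf and 33.6% of its Col18a1. Hgf encodes hepatocyte growth factor and Col18a1 a basement membrane collagen. Its Dcn was at 13175 CPM and its Col1a1 at 5988 CPM.

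The last 2 subclusters lay mostly in KO. Subcluster 4 held 2 WT and 13 KO cells and was led by Ifit1, Sfrp4, Cxcl10, Isg15 and Selenop. The largest share from 1 cell was 41.1% of its Ifit1 UMIs, 38.8% of its Sfrp4, 18.6% of its Cxcl10, 26.3% of its Isg15 and 18.6% of its Selenop. Ifit1, Isg15 and Cxcl10 are induced by interferon. Red-cell haemoglobin RNA was high in 5 of its cells, and its erythroid and platelet markers gave 25002 CPM. Subcluster 5 held 0 WT and 7 KO cells, where 0 of 86 allows a share of up to 3.49% by a limit of 3 counts and up to 4.2% by the Clopper-Pearson interval. Its leading genes were Ccl21a, Clu, Csf3, Procr, Cxcl5, Cxcl12 and Apoe. The 50 UMIs of Ccl21a came from 3 cells, 96% of them from 1 cell, while Clu, Csf3, Procr, Cxcl5, Cxcl12 and Apoe were detected in 7 of 7. One cell gave 67.6% of the subcluster's Clu UMIs, 78.3% of its Csf3 and 76.0% of its Procr, against 22.8% of its Cxcl5. For Cxcl12 and Apoe the largest share from 1 cell was 48.9% and 36.4%.

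Subcluster 5 cells carried Dcn at 21567 CPM, the highest of the 6, and Col1a1 at 3032 CPM, the lowest. Cxcl1, which draws neutrophils, reached 27950 CPM in them, with 47 to 631 UMIs per cell. Vcam1, an adhesion molecule, was at 2052 CPM, and the pericyte marker Rgs5 was found in 5 of the 7 cells. Notch3 had no UMI there. Because these 7 cells come from 1 library, a cell state and a feature of that library cannot be told apart. As shares of each library, subcluster 4 was 2.33% of WT members (0.283 to 8.15) and 20% of KO members (11.1 to 31.8), and subcluster 5 was 10.8% of KO members (4.44 to 20.9).

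**Figure D2:**
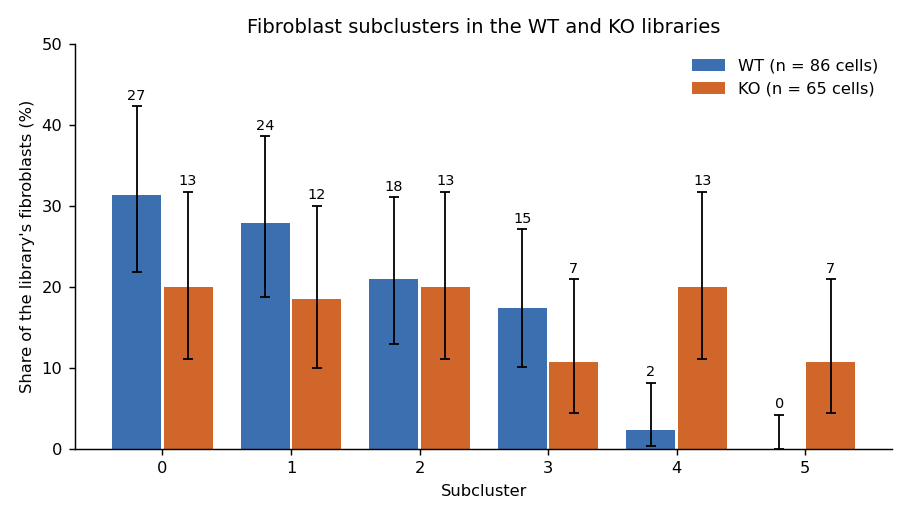
Share of each library's fibroblasts in the 6 subclusters (bars, %), with 95% Clopper-Pearson intervals of the share (lines) and the number of cells above each bar. Subclusters 0 to 3 hold cells of both libraries, subcluster 4 holds 2 WT and 13 KO cells, and subcluster 5 holds 0 WT and 7 KO cells.

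For the comparison of levels, 5421 genes had at least 20 UMIs in 1 of the 2 sums. Of these, 137 (2.53%) were at least 2-fold higher in KO, 358 (6.6%) at least 2-fold lower, 39.8% higher and 60.2% lower by any amount, with a median log2 ratio of -0.10. The WT sum was 1.86 times the KO sum. Counts of genes in a list are read against these shares. The lists were chosen with earlier results of these data known. Each named gene was taken by size of difference with no test, and genes with more than 25% of their UMIs in 1 cell of the higher library are named apart.

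Dusp2 itself was rare in fibroblasts. It gave 23 UMIs in 7 of 86 WT members, 56.5% of them in 1 cell, a level of 28.9 CPM. It gave 0 UMIs in KO members, which allows up to 7.0 CPM, or a UMI in up to 4.62% of cells by a limit of 3 counts, and was at least 4.12-fold lower. This limits detection at the depth of these cells and not the share of cells that express the gene. Of 8 dual-specificity phosphatases compared, 3 were higher and 5 lower in KO. Dusp5, which acts on nuclear ERK, was at 138 CPM in WT and 72.4 in KO, and Dusp10, which acts on JNK and p38, at 113 and 163 CPM. Of 7 NFAT and calcineurin genes 1 was higher and 6 lower, 1 of them at least 2-fold. Nfatc1 was at 158 CPM in WT and 152 in KO, with a log2 ratio of -0.06 (-0.51 to 0.38). Nfatc3 had 27 WT and 4 KO UMIs, a log2 ratio of -1.86. The calcineurin regulator Rcan1, an NFAT target gene, was at 146 and 110 CPM. Of 26 immediate-early and ERK response genes 17 were higher and 9 lower in KO, and 3 were at least 2-fold higher (Ier3, Nr4a1 and Spry2). Spry2, a feedback inhibitor of ERK signalling, was at 77.8 CPM in WT and 198 in KO. Its log2 ratio of 1.35 was 0.97 without subclusters 4 and 5, and that of Ier3 went from 1.10 to -0.56, so that 0 of the 26 were 2-fold higher without these cells.

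Interstitial collagen was at similar levels in the 2 libraries. The rule required Col1a1, Col1a2 and Col3a1, so their levels are a description. Col1a1 was at 13611 CPM in WT (13356 to 13869) and 13786 in KO (13437 to 14142). Col1a2 was at 10501 and 9542 CPM, and Col3a1 at 10328 and 12775. Per cell, Col1a1 ran from 471.5 to 42994 CPM around a median of 9343 in WT and from 1094 to 41612 around 10907 in KO, so the cells of the 2 libraries overlapped over nearly the whole range. Among 9 fibrillar collagens compared, 7 were higher and 2 lower in KO, 1 at least 2-fold in each direction, with a median of 0.06. Col5a1 and Col5a2, which set fibril width, had log2 ratios of 0.01 and 0.10. Type VI collagen, which forms beaded filaments around cells, had log2 ratios of 0.40, 0.08 and 0.32 for Col6a1, Col6a2 and Col6a3. The anchoring-fibril collagen Col7a1 had 3 WT UMIs and 41 KO UMIs, a log2 ratio of 4.67 (3.02 to 7.0), with 51.2% of the KO UMIs in 1 cell.

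Basement membrane genes were mostly lower in KO by less than 2-fold. Of 10 compared, 9 were lower and 1 higher in KO, none by 2-fold, and the median was -0.22. Col4a1 was at 632.5 CPM in WT and 502 in KO. Among 25 genes that process and crosslink collagen, 10 were higher and 15 lower, none by 2-fold. Lox, a crosslinking enzyme, was at 320 and 222 CPM, and Serpinh1, the collagen chaperone, at 1178 and 1221. Sparc, a collagen-binding glycoprotein, was at 10456 and 11204 CPM.

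Decorin and lumican were higher in KO while some other matrix genes were lower. The log2 ratio of Dcn was 0.41 (0.36 to 0.47) and went to 0.19 without subclusters 4 and 5. That of Lum was 0.25. In the same list of 9 small proteoglycans, 3 were higher and 6 lower, and Prelp (179.5 and 79.4 CPM) and Podn (77.8 and 37.4 CPM) were at least 2-fold lower. Versican, the large proteoglycan encoded by Vcan, was at 565 CPM in WT and 359.5 in KO. Among 27 elastic-fibre and matrix glycoprotein genes, 13 were higher and 14 lower in KO, with a median of -0.08. By at least 2-fold, 1 was higher and 2 were lower. The microfibril gene Mfap2 was at 238 CPM in WT and 509 in KO, a log2 ratio of 1.09, and kept 1.16 without subclusters 4 and 5. Eln was at 959 and 427 CPM, a log2 ratio of -1.17, with 37.0% of the WT UMIs in 1 cell.

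The protease inhibitors Timp3 and Timp1 were lower in KO. Timp3 was at 809 CPM in WT and 177 in KO, and Timp1 at 1688 and 775. One WT cell gave 32.1% of the WT Timp3 UMIs and 1 cell gave 28.7% of the WT Timp1 UMIs, so both rest in part on single cells. Timp2 had a log2 ratio of -0.22. Mmp2, a gelatinase, was at 1119 and 1128 CPM, Mmp3, stromelysin, at 1044 and 1471, and the membrane protease gene Mmp14 at 516 and 397. The aggrecanase gene Adamts4 was at 228 and 93.4 CPM. In the list of 24 genes 10 were higher and 14 lower, 2 and 3 of them by at least 2-fold.

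Contractile genes were sparse in both libraries. Acta2, smooth-muscle actin, gave 53 UMIs in 10 WT members, with 37.7% of them in 1 cell, and 4 UMIs in 2 KO members. Tagln gave 75 UMIs in 6 WT members and 12 in 2 KO members, with 46.7% and 91.7% of them in 1 cell. Ccn2, a TGF-beta target gene, gave 101 UMIs in 13 WT members, with 35.6% of them in 1 cell, and 6 in 5 KO members. In the list of 18 contractile and myofibroblast genes 8 were higher and 10 lower in KO, with a median of -0.10 that was 0.07 without subclusters 4 and 5. Tpm1 and Cald1, which bind actin filaments, had log2 ratios of 0.32 and -0.11. In the TGF-beta and activin pathway 12 of 23 genes were higher in KO and 11 lower, and the median was 0.07.

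Resting adventitial genes were mostly lower in KO. Of 19 compared, 17 were lower and 2 higher, 7 of them at least 2-fold lower, against 6.6% of all genes, and the median was -0.45. Pi16, a peptidase inhibitor that marks the resting population, was detected in 55 of 86 WT and 29 of 65 KO members. Its level was 968 CPM in WT (900 to 1038) and 362 in KO (307 to 424), a log2 ratio of -1.42. The median cell had 487 CPM in WT and 0 in KO. Thinned to 2000 UMIs per cell, which left 75 WT and 55 KO members, Pi16 was detected in 39 WT cells, or 52% (40.2 to 63.7), and in 17 KO cells, or 30.9% (19.1 to 44.8). Dpp4, a cell-surface peptidase, was at 71.5 and 21.0 CPM, Wnt2 at 62.8 and 23.4, and the adhesion receptor gene Adgrd1 at 777 and 338.5. Cd34, a surface sialomucin, was at 399 and 243 CPM. Dpt, which encodes the matrix protein dermatopontin, and Opcml were the 2 higher members, at 1408 and 363 CPM in WT and 1674 and 430 in KO. Clec3b was at 1304 and 1242 CPM. The list's median was -0.29 without subcluster 5 and -0.42 without subclusters 4 and 5. It came closer to the median of all genes, at -0.12, when cells were thinned to 2000 UMIs before the rule, and at -0.16 with Lyz2 at 0. Within subcluster 0, 27 WT cells against 13 KO cells, 13 of 18 genes of the list were lower in KO. Their median was -0.93 against -0.15 over 2536 genes, and 8 were at least 2-fold lower against 351 of the 2536. In subclusters 1 and 2 the list's medians were -0.12 and -0.36, near the -0.14 and -0.42 over all genes compared there. The log2 ratios of Pi16 in subclusters 0, 1 and 2 were -2.31, 0.21 and -0.20.

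**Figure D3:**
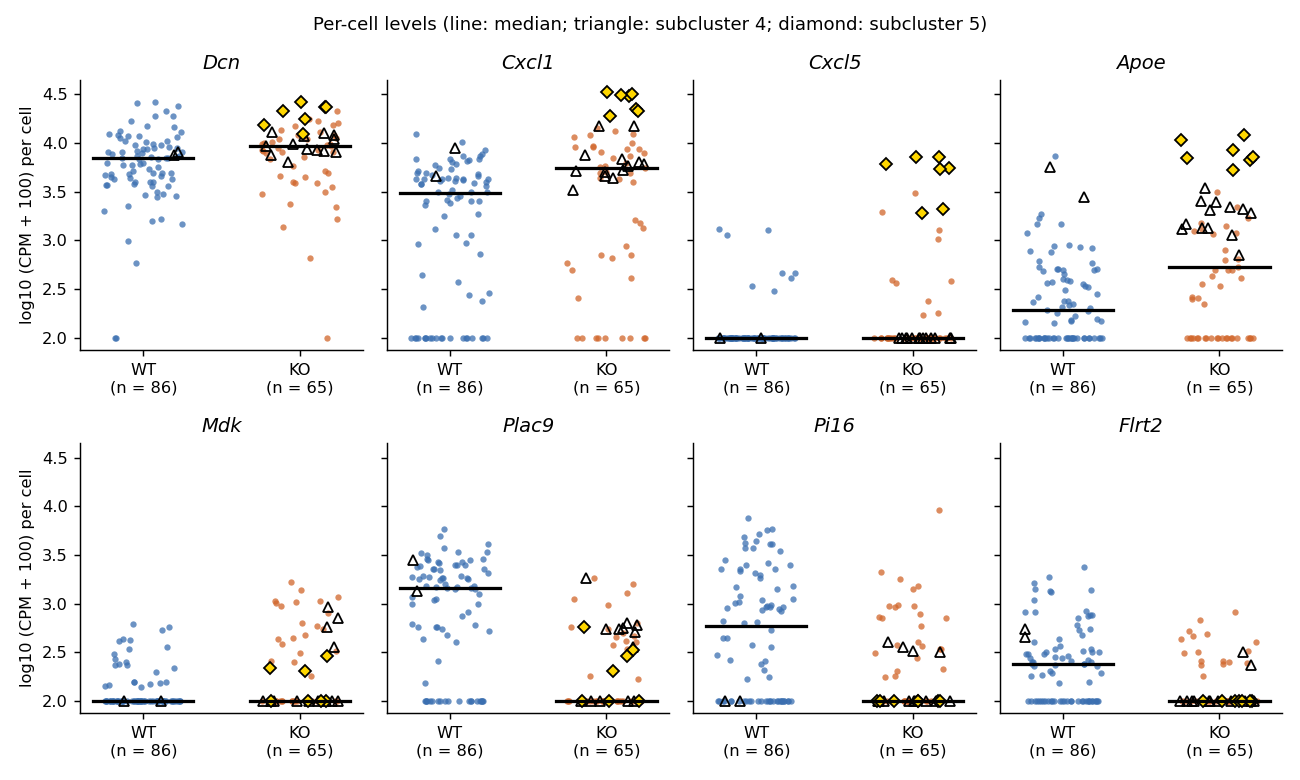
Level of 8 genes in each fibroblast (y axis, log10 of CPM + 100, where 2 means no UMI), with WT cells in blue, KO cells in orange, triangles for subcluster 4, diamonds for subcluster 5 and a line at each library's median. Cxcl1 and Dcn overlap widely between the libraries, the 7 diamonds are the highest KO cells for Cxcl1 and Apoe and lie among the highest for Cxcl5, and Plac9 and Pi16 have a median of 0 in KO but not in WT.

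Chemokines were mostly higher in KO. Of 19 compared, 13 were higher against 39.8% of all genes and 6 lower, and 7 were at least 2-fold higher against 2.53% of all genes and 3 at least 2-fold lower. Without subcluster 5, 4 of 18 were at least 2-fold higher and 4 lower, against 113 and 359 of 5404 genes. Without subclusters 4 and 5, 2 of 18 were higher and 3 lower by that size, against 112 and 394 of 5369 genes. Cxcl1 was detected in 66 of 86 WT and 56 of 65 KO members, at 3323 CPM in WT (3198 to 3452) and 8307 in KO (8036 to 8584), a log2 ratio of 1.32. The median cell was at 2955 CPM in WT and 5402 in KO, and the highest at 12249 and 33218. Cxcl5 was detected in 8 WT and 17 KO members, at 56.5 and 486 CPM, with 53.3% of the WT UMIs in 1 cell. Subcluster 5 gave 71.6% of its KO UMIs. Cxcl2 was at 1050 and 3170 CPM, with 49.4% of the KO UMIs in 1 cell. Cxcl12, which binds Cxcr4 and retains leukocytes, was at 295 and 1557 CPM. Subcluster 5 gave 65.4% of its KO UMIs, and 31.9% of them came from 1 cell. Without subcluster 5 the log2 ratios were 0.87 for Cxcl1, 1.44 for Cxcl5, 0.44 for Cxcl2 and 1.03 for Cxcl12.

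CC chemokines were mixed. Ccl11, which draws eosinophils, was detected in 41 WT and 36 KO members, at 210 and 574 CPM, a log2 ratio of 1.45 that was 1.01 without subclusters 4 and 5. Ccl2, which draws monocytes, was at 4213 and 6516 CPM, a ratio of 0.63 that was 0.35 without them. Ccl7 was at 3358 and 3894 CPM, and its ratio went from 0.21 to -0.31. Ccl6, a chemokine abundant in macrophages, was at 95.4 CPM in WT and 18.7 in KO, beside macrophage markers of 452 and 203 CPM. Cxcl14, a chemokine of resting stroma, was at 332.5 and 77.0 CPM, with 26.4% of the WT UMIs in 1 cell. Cxcl10, which draws activated T cells, was detected in 35 and 31 members at 353 and 803 CPM, and subcluster 4 carried it at 2997 CPM. Its log2 ratio of 1.19 was 0.39 without subclusters 4 and 5.

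Start regions of the CXC chemokines are shown because Cxcl1 and Cxcl2 were both high in the sum of subcluster 5, at 27950 and 18443 CPM. Cxcl2 was detected in 7 of its 7 cells, but its level there rests mostly on 1 cell. Of 1358 KO Cxcl2 UMIs, 549 lay outside the subcluster, and 1 cell inside it gave 49.4%. The letters GGNNTTTCC, a short form of the NF-kB motif, were searched on both strands of the 300 bases from 250 before to 50 after each RefSeq gene start (build GRCm38.p6). They were found in 5.82% of 32851 start regions, which is 6.62% of 27025 gene symbols, and in 7 of 19 chemokine genes that had a sequence. In the stretches below, 5′ to 3′ on the gene's strand, capitals mark these matches. They are letters in a window, not measured binding sites.
Cxcl1, chr5:90891144-90891195, plus strand: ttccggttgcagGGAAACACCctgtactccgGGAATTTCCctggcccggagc
Cxcl2, chr5:90903791-90903842, plus strand: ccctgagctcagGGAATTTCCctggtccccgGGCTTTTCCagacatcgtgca
Cxcl3, chr5:90786017-90786049, plus strand: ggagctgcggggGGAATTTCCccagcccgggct
The Cxcl1 stretch holds 1 match on each strand and the Cxcl2 stretch 2 on the gene's strand. Cxcl3, whose single match has the same letters as one in Cxcl1 and one in Cxcl2, was at 129 CPM in WT and 147 in KO members, a log2 ratio of 0.19 (-0.29 to 0.65).

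The inflammatory fibroblast list as a whole depended on the 7 cells of subcluster 5. With all members 13 of 20 genes were higher and 7 lower in KO, 5 of them at least 2-fold higher, and the median was 0.19. Without subcluster 5 the median was -0.09, and without subclusters 4 and 5 it was -0.20. Il6 was detected in 44 WT and 28 KO members, at 319 and 338.5 CPM, a log2 ratio of 0.09 that was -0.92 without subclusters 4 and 5. Ptgs2, the inducible prostaglandin synthase, was at 266 and 362 CPM, and its ratio of 0.44 was -1.25 without subcluster 5. Il33, an alarmin, was at 631 and 453 CPM, and its ratio of -0.48 was -1.62 without subcluster 5. Saa3, an acute-phase gene, was at 1477 and 1452 CPM. Ly6c1 was at 877 and 385 CPM, detected in 69 of 86 WT and 41 of 65 KO members.

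Cytokines and growth factors also depended on subcluster 5. With all members 16 of 21 were higher and 5 lower in KO, with a median of 0.43, and without subcluster 5 the median was -0.16. Csf3, the granulocyte growth factor, was at 50.2 and 238 CPM, and 95.1% of its KO UMIs came from subcluster 5. Lif was at 64.0 and 124 CPM, with 81.1% of its KO UMIs there. Csf1, the macrophage growth factor, was detected in 69 WT and 46 KO members at 886 and 1401 CPM, and its log2 ratio of 0.66 was 0.69 without subclusters 4 and 5. Igf1 was at 399 and 640 CPM, with ratios of 0.68 and 0.59. In the list of lymphoid stroma genes, 6 of 8 were higher, with a median of 0.83 that was 0.09 over the 6 genes compared without subcluster 5. Vcam1 was detected in 17 WT and 29 KO members, at 146 and 331.5 CPM. Subcluster 5 gave 63.4% of its KO UMIs, and without it the ratio of 1.19 was -0.11.

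**Figure D4:**
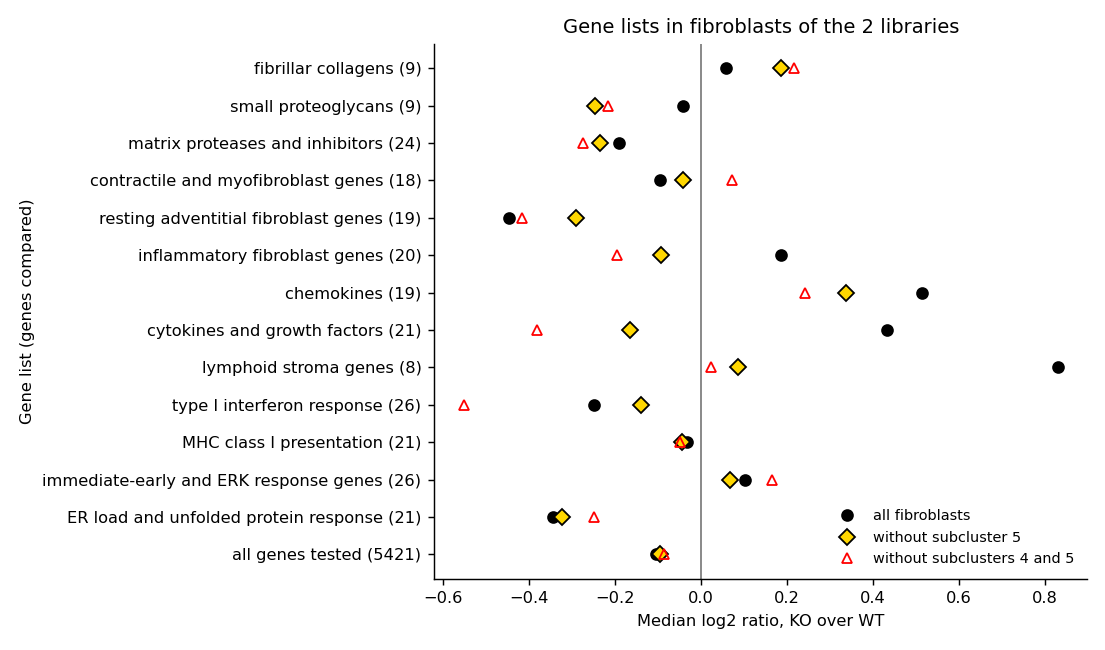
Median log2 ratio of KO over WT (x axis) of the genes compared in each list (number in brackets), over all fibroblasts (black circles), without subcluster 5 (yellow diamonds) and without subclusters 4 and 5 (red triangles). The resting adventitial list lies below 0 in the 3 sets of cells, the chemokine list above 0, and the inflammatory and cytokine lists cross 0 when subcluster 5 is left out.

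Type I interferon genes led subcluster 4, while over all members the list lay near the background. Of 26 compared, 7 were higher and 19 lower in KO, against 60.2% of all genes lower, 1 was at least 2-fold higher and 3 at least 2-fold lower, and the median was -0.25. Ifit1, an RNA-binding antiviral protein, was at 66.5 and 177 CPM, and its log2 ratio of 1.42 was 0.30 without subclusters 4 and 5. Isg15, a ubiquitin-like protein, was at 162 and 271 CPM, and its ratio of 0.74 was 0.06. Ifit3 was at 90.4 and 18.7 CPM, with 88.9% of its WT UMIs in 1 cell. Stat2, a part of the factor that receptor signalling activates, was at 80.3 and 51.4 CPM, and Ifitm3 at 1571 and 1606. Without subclusters 4 and 5, 21 of 26 were lower, against 3030 of 5369 genes, and the median was -0.55. Within subcluster 1, 11 of 13 genes compared were lower in KO, against 1496 of 2505 genes, with a median of -1.79 against -0.14. The WT cell with most of the Ifit3 UMIs lay in this subcluster, where Ifit3 was at 172 CPM. Within subcluster 0, 7 of 11 were lower and 4 higher, with a median of -0.39 against -0.15 over 2536 genes. Within subcluster 2, 2 genes were compared, with a median of -0.13. The list's median over all subclusters reversed to 0.32 with Lyz2 required to be 0, and to 0.03 when each cell's CPM was averaged.

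The start regions of interferon genes that led subcluster 4 are shown for the letters GAAANNGAA, a short form of the interferon response element. They were searched as above, on both strands, and were found in 8.56% of all start regions, or 9.76% of gene symbols, and in 17 of 27 listed interferon genes with a sequence. Capitals mark the matches, some of which overlap each other.
Isg15, chr4:156200864-156200908, minus strand: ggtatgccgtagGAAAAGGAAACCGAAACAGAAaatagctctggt
Ifit1, chr19:34640768-34640825, plus strand: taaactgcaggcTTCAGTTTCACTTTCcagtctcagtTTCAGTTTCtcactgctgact
Cxcl10, chr5:92349082-92349114, minus strand: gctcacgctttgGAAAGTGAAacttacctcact
In Ifit1 the 3 matches lie on the other strand. The levels in subcluster 4 were 993 CPM for Isg15, 976 for Ifit1 and 2997 for Cxcl10, against 161, 62.5 and 388 CPM in the other members.

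Antigen presentation by MHC class I differed little. In KO, 9 of 21 were higher and 12 lower, and their median was -0.03. B2m, the shared light chain, was at 1729 and 1861 CPM and H2-K1 at 1185 and 1184. Among genes of the endoplasmic reticulum load and unfolded protein response, 18 of 21 were lower and 3 higher, 1 at least 2-fold lower, with a median of -0.35. Hspa5, its main chaperone, was at 1892 CPM in WT (82 cells) and 1345 in KO (61 cells), and Hsp90b1 at 1050 and 731. Complement genes differed in direction. C1qa, C1qb and C1qc, made mainly by macrophages, were at 46.4, 79.1 and 45.2 CPM in WT and 9.34, 16.3 and 11.7 in KO. C4b and Serping1, which fibroblasts make, were at 556 and 1458 CPM in WT and 833.5 and 1819 in KO. Their log2 ratios of 0.58 and 0.32 were -0.41 and -0.23 without subclusters 4 and 5.

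The size rule named 12 genes per direction among 2575 candidates. Beside Cxcl5, Cxcl1, Ccl11 and Cxcl10, the higher genes were Rgs16, Igfbp3, Apoe, Mdk, Or5m3b, Tmeff2, Arhgap31 and Selenop. Apoe, apolipoprotein E, was detected in 52 WT and 44 KO members at 299.9 and 1419 CPM, and its log2 ratio of 2.24 was 0.87 without subclusters 4 and 5. Rgs16, an inhibitor of G-protein signalling, was at 27.6 and 240.5 CPM, and its ratio of 3.12 was 0.24 without them. Igfbp3, a binding protein of insulin-like growth factors, was at 42.7 and 273 CPM, and its ratio turned to -0.04. That of Or5m3b, an olfactory receptor gene, went from 2.32 to -2.22.

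Mdk was more than 2-fold higher with and without these cells. It encodes midkine, a secreted heparin-binding growth factor. It was at 59.0 CPM in WT (43.3 to 78.4) and 257 in KO (211 to 309.5), a log2 ratio of 2.12 that was 2.33 without subclusters 4 and 5. In subclusters 0, 1 and 2, which each held at least 10 cells per library, its ratios were 3.05, 3.34 and 3.87, from 12, 9 and 2 WT UMIs and 45, 35 and 13 KO UMIs. Subcluster 3, with 15 WT and 7 KO cells, went the other way for Mdk, with 24 WT and 7 KO UMIs and a ratio of -0.59 (-2.04 to 0.67). Tmeff2 was at 108 and 285 CPM and Arhgap31 at 72.8 and 201, with ratios of 1.40 and 1.46 that were 1.19 and 1.63 without subclusters 4 and 5. The ratio of Tmeff2 was inside 2-fold with Lyz2 at 0 (0.72), thinned before the rule (0.69) and with the mean of each cell's CPM (0.85), and that of Arhgap31 was 0.99 when thinned.

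The lower genes were Ntn4, Plac9, Kctd11, Sbsn, Tmem100, Ccl6, Atp2b4, Flrt2, Peg3, Pi16, Ckb and Foxo1, and the log2 ratios of the 11 other than Ntn4 lay between -2.76 and -1.13 without subclusters 4 and 5. Plac9, a small secreted protein of mesenchymal cells, was detected in 66 of 86 WT and 30 of 65 KO members. Its level was 1257 CPM in WT (1181 to 1338) and 208 in KO (167 to 256), a log2 ratio of -2.60, and it was lower in KO in subclusters 0, 1 and 2, by log2 ratios of -2.57, -3.80 and -3.27. The gene has a near-identical copy in the mouse genome, so its count is uncertain. Ntn4, which encodes a netrin of basement membranes, gave 67 UMIs in 20 WT members and 0 UMIs in KO members, and was at least 12-fold lower. Flrt2, an adhesion protein, was at 338 and 107 CPM, with a ratio of -3.21 in subcluster 1 and -0.09 in subcluster 0. Foxo1, a transcription factor, was at 137 and 37.4 CPM.

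**Figure D5:**
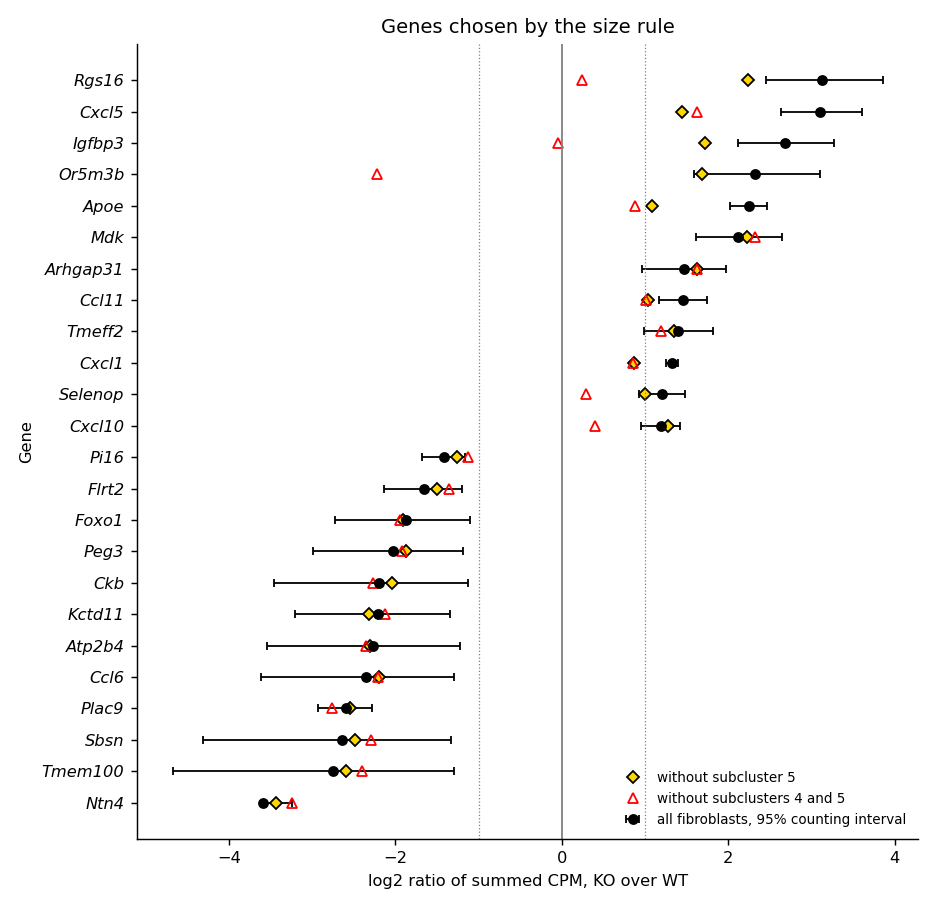
Log2 ratio of KO over WT (x axis) for the 24 genes named by the size rule, over all fibroblasts with the 95% counting interval (black), without subcluster 5 (yellow diamonds) and without subclusters 4 and 5 (red triangles), with dotted lines at 2-fold. The 12 lower genes stay beyond 2-fold in the 3 sets of cells, Rgs16, Igfbp3, Apoe, Cxcl1, Selenop and Cxcl10 lie inside 2-fold and Or5m3b is reversed without subclusters 4 and 5, and Ntn4 is drawn at its bound of 3 UMIs.

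Within the 3 subclusters that held at least 10 cells of each library, fewer genes were compared and each sum was small. In subcluster 0 Lpl, lipoprotein lipase, was at 157.5 CPM in WT and 640 in KO, and Plac9 at 2058 and 348. Col3a1 was higher in KO in subclusters 0 and 1, by log2 ratios of 1.10 and 0.54, and lower in subcluster 3, at 11614 and 3409 CPM. In subcluster 1 the growth factor binding protein gene Igfbp4 was at 743 and 153 CPM and gelsolin, encoded by Gsn, at 1151 and 279. Cxcl1 had log2 ratios of 1.02, 0.48 and 0.59 in subclusters 0, 1 and 2. In subcluster 2 Dcn was lower in KO, at 12088 and 5582 CPM, where over all members it was higher.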

How the data were processed

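The authors deposited unnormalized UMI counts of each gene in each barcode for 1 WT and 1 KO library, made with Cell Ranger. The submitters' processing notes name version 6.0.1, Seurat 4.0.3 and 4.0.4 and the build mm10, while the file headers name version 8.0.1. The sources used here state neither the annotation release nor whether counting used strand.

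Members were selected as the report states, and their counts were summed per library (113873249 UMIs over all WT barcodes and 101532711 over all KO barcodes). Subclusters were made with scanpy 1.11.5 from 1500 variable genes, 15 components, 10 neighbours and resolution 0.6. Intervals were computed with scipy 1.17.1 and cover counting error only. The comparison was tested on simulated data. The floor for a library at 0 was 3 UMIs. Named genes were the 12 per direction with the largest differences among genes with at least 50 UMIs, a mean of at least 30 CPM and no more than 25% of UMIs in 1 cell of the higher library. Members and lists were chosen with earlier results of these data known. No subcluster held 20 cells per library, so a minimum of 10, chosen after seeing the data, was used, and values of subcluster 3, below it, were added later. Doublets were not removed: automatic calls marked 141 WT and 0 KO barcodes and no member, so barcodes with the highest scores were left out as an alternative. Start regions came from the RefSeq table of build GRCm38.p6.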

Additional observations from a re-analysis of the deposited data

How the results depend on the processing

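No replicates exist, so no sample could be left out. No paired analysis was possible because each genotype is 1 library. Over 18 alternatives, 2 of 432 log2 ratios of named genes reversed and 53 moved outside their counting interval, and 8 of 144 list medians reversed. With Lyz2 at 0 (18 WT and 39 KO members) the log2 ratio of shares was 0.74, 255 genes were at least 2-fold higher and 89 lower, and the medians were -0.026 for fibrillar collagens and 0.32 for type I interferon genes. Without the highest doublet scores the lymphoid stroma median was -0.077. Leaving out subclusters was chosen after seeing the data. Without subcluster 5 the inflammatory median was -0.094. Without subclusters 4 and 5 it was -0.20, the contractile median 0.072, and the log2 ratios of Igfbp3 and Or5m3b -0.044 and -2.22. Thinned to 2000 UMIs before the rule, 85 genes were at least 2-fold higher and 161 lower, with a contractile median of 0.036. With the mean of each cell's CPM, 237 were higher and the interferon median was 0.028. With at least 5 UMIs in 1 sum, 675 were higher and 1065 lower, and with at least 50, 54 and 105. The cause of these shifts was not tested, other than that the UMI minimum sets how many genes are compared.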

Other observations

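Across members, the genes whose level followed Dcn most closely were Lum, Srpx, Lpl and Sparcl1. Their Spearman coefficients, averaged over the 86 WT and 65 KO cells taken separately, were 0.54, 0.46, 0.44 and 0.43 among 4320 genes. This is a description of cells that share a library and differ in depth.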
